A study of Mus musculus with 9 samples.

Results

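The comparison described here sets the hearts of GlycoHi mice, which expressed a phosphatase-deficient phosphofructokinase 2 in the heart, against the hearts of wild-type (WT) mice. The rule took 3 GlycoHi and 3 WT hearts, 6 of the 9 hearts measured. The remaining 3 came from GlycoLo mice, which expressed a kinase-deficient form of the same enzyme. All groups were adult male mice of the FVB background, aged 15 weeks, and labelled naive. Hearts were snap-frozen and RNA of each mouse was hybridised to 1 Affymetrix mouse genome array. The sources used here do not name the promoter that drives the transgenes, the number of founder lines or the origin of the WT mice. The comparison asks how gene expression in the adult heart differs when a form of this enzyme without its phosphatase activity is expressed there.

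Phosphofructokinase 2 is a single protein with a kinase that makes fructose 2,6-bisphosphate and a phosphatase that removes it. Fructose 2,6-bisphosphate activates phosphofructokinase 1, the committed step of glycolysis, and a form without phosphatase activity therefore favours glycolytic flux. Glycolytic intermediates also feed side pathways, among them serine synthesis from 3-phosphoglycerate, which supplies carbon to the folate cycle. Cells that lack amino acids, or whose mitochondria or endoplasmic reticulum are stressed, make more of the transcription factor ATF4, which with C/EBP partners switches on genes of amino acid synthesis, uptake and tRNA charging.

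The genes that rose most often as a group in GlycoHi hearts were aminoacyl-tRNA synthetases, and their promoters are shown because several hold the core letters of the composite C/EBP and ATF response element to which ATF4 can bind. The letters TGATGNAA were searched on both strands of RefSeq promoter windows (GRCm38.p6, 250 bases before to 50 after each gene start), with no other motif searched. The motif was chosen with the expression results known, so the matches are a description. A 30-base stretch around a match is given for genes called higher, 5′ to 3′ on the strand that reads TGATG, with the motif in capitals.
Asns: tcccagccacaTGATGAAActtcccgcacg
Aars: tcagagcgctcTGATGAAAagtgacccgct
Gars: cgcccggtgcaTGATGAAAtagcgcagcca
Iars: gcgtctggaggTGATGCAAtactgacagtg
Tars: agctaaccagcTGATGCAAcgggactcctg
Yars: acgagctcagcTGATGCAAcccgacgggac
Pycr1: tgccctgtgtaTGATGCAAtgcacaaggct
Chac1: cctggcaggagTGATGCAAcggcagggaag
Trib3: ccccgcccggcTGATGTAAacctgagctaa

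On the minus strand lay the stretches of Asns (chr6:7693214-7693243), Aars (chr8:111033840-111033869), Gars (chr6:55037960-55037989), Iars (chr13:49682126-49682155), Pycr1 (chr11:120643833-120643862) and Chac1 (chr2:119351038-119351067). On the plus strand lay those of Tars (chr15:11399655-11399684), Yars (chr4:129189895-129189924) and Trib3 (chr2:152344028-152344057). The motif began 23 bases before the annotated start in Asns, 30 before it in Gars, 15 before it in Tars and 103 before it in Pycr1, and the farthest match, that of Chac1, began 193 bases before. In Yars, Iars, Aars and Trib3 it began after the start, at bases 4, 8, 10 and 15 of the transcript. The promoter of Asns (chr6:7693160-7693459, minus strand) is printed whole, on the strand of the gene, because Asns rose most among the genes with a match.
Asns promoter: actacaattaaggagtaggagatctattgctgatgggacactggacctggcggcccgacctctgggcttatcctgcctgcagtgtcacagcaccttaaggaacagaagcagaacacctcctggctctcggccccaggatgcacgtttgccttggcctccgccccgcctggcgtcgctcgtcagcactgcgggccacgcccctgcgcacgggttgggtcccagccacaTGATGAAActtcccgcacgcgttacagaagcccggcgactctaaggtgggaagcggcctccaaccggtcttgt

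The motif was present in 3.97% of all 32851 promoter windows and in 3.17% of the 14485 measured genes with an entry. Among genes with an entry, 17 of 265 called higher in GlycoHi hearts held it (6.42%) and 8 of 220 called lower (3.64%). In 5 lists of amino acid and stress response genes it was held by 9 of the 20 members called higher with an entry (45%). Of the 51 members with an entry that were not called higher, 8 held it (15.7%). Aldh1l2, Atf6, Cars, Eif4ebp1, Lars, Nars, Slc7a3 and Slc7a5 were called higher in these lists but had no entry. Of the tRNA synthetases called higher, 5 of the 8 with an entry held a match (62.5%), against 0 of the 5 with an entry that were not called. The windows of Mthfd2, Phgdh, Psat1, Atf5, Ddit3, Cebpg, Slc3a2, Aldh18a1, Sars, Mars and Eprs had no match, which says only that these letters are not in those windows.

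The array measured 45037 probe sets after 64 controls were left out, as log2 values, and a gene was called when limma's adjusted p was below 0.05. The fit used all 9 arrays, and the GlycoLo arrays entered the estimate of the spread. The difference between GlycoHi and GlycoLo hearts in the same fit was the test of whether the lines differed. Array medians differed by less than 0.1, and along the leading axis of variation, with 29.3% of it, the 3 GlycoHi hearts stood apart from the other 6. In GlycoHi hearts 938 probe sets were called (2.08% of those tested), 487 higher (1.08%) and 451 lower (1.00%). Only 59 of the higher and 22 of the lower differed by 2-fold or more. Among the 19760 probe sets with a single gene symbol 616 were called (3.12%), 319 higher (1.61%) and 297 lower (1.5%). In all 938 the 3 GlycoHi values did not overlap the 3 WT values, as in 18.2% of all probe sets. GlycoLo hearts, set against the same WT arrays, had 38 calls (0.0844%), 7 higher (0.0155%) and 31 lower (0.0688%). Of the 938, 444 were also called between GlycoHi and GlycoLo hearts (47.33%). In that comparison 771 probe sets were called in all (1.71%), 431 higher in GlycoHi (0.957%) and 340 lower (0.755%). Both comparisons use the same 3 GlycoHi hearts, so their calls are not independent and overlap more readily.

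Actc1, cardiac actin, was near the top of the log2 scale, between 14.28 and 14.30 in WT and between 14.25 and 14.28 in GlycoHi hearts. The summed level of 8 cardiomyocyte markers (log2 of the sum of their linear values) lay between 16.10 and 16.11 in WT and 16.07 and 16.11 in GlycoHi hearts. The brightest members weigh most in such a sum. Of these 8 markers 6 stood lower in GlycoHi hearts, and 1, Myh6, was called lower (background 1.5%). Of the other lists, 5 had GlycoHi sums wholly below those of WT. White adipocyte markers (10 genes, 1 called lower) summed to 10.41 to 10.91 in WT, 10.29 to 10.59 in GlycoLo and 9.88 to 10.04 in GlycoHi hearts. The called member, Thrsp (-0.98), weighed heavily in that sum, and 9 of the 10 stood lower. Smooth muscle and pericyte markers (8 genes, 1 called lower) summed to 11.79 to 11.80 in WT, 11.60 to 11.71 in GlycoLo and 11.46 to 11.54 in GlycoHi hearts. Erythroid markers (7 genes, 0 called) summed to 8.97 to 9.24 in WT, 8.22 to 8.81 in GlycoLo and 8.33 to 8.75 in GlycoHi hearts. Epicardial markers (6 genes) summed to 8.13 to 8.60 in WT and 7.88 to 8.11 in GlycoHi hearts, and Schwann cell and neuron markers (8 genes) to 8.43 to 8.61 and 8.29 to 8.40. The skeletal muscle sum was 12.08 to 12.28 in WT and 12.30 to 12.84 in GlycoHi hearts. It was carried by Acta1, skeletal actin (0.39 ± 0.12, adjusted p = 0.157), while 8 of the 10 skeletal muscle markers stood lower and 0 were called. In whole hearts, fewer cells of a type and less RNA per cell cannot be told apart.

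Pfkfb1, which encodes the liver isoform of phosphofructokinase 2, was measured at 7.97, 7.74 and 7.95 in the WT hearts and at 14.43, 14.41 and 14.40 in the GlycoHi hearts (log2). The GlycoHi values were nearly equal to each other and far above all WT values, and those of GlycoLo hearts, 14.34 to 14.37, were beside them. The difference from WT was 6.53 ± 0.07 (SE of the fit, n = 3 mice per group; limma adjusted p = 4.38e-12), and the lines stood 0.06 ± 0.07 apart (adjusted p = 0.81). All 6 transgenic values lay above those of cardiac actin, where an array may no longer resolve levels, so neither the size of the rise nor a difference between the lines could be judged. Whether the signal came from the transgene, whose sequence the sources used here do not give, was not tested. Pfkfb3, an inducible isoform with a strong kinase, was at 5.13, 4.82 and 4.87 in WT and at 5.50, 5.52 and 5.51 in GlycoHi hearts, a rise of 0.57 ± 0.08 (adjusted p = 0.00536). Pfkfb2, the main cardiac isoform, differed by 0.21 ± 0.16 (adjusted p = 0.598).

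The gene with the largest difference was Tyr, the tyrosinase that makes melanin precursors in pigment cells. FVB is an albino strain. Its log2 values were 2.87, 3.21 and 3.23 in WT hearts, 3.30, 3.28 and 3.10 in GlycoLo hearts and 12.67, 12.99 and 12.68 in GlycoHi hearts. The WT and GlycoLo values overlapped, and the GlycoHi values stood apart, 9.68 ± 0.12 above WT (adjusted p = 6.35e-12) and 9.56 ± 0.12 above GlycoLo (adjusted p = 1.45e-11). The WT and GlycoLo levels were not shown to be above background, so these sizes depend on the low end of the scale, and with an offset of 50 added to the linear values before the logarithm the difference from WT was 6.92. Other pigment cell markers did not rise with it. Of 9 measured, Tyr rose, Mlana fell by 0.82 ± 0.16 (adjusted p = 0.0295, lost when any of 7 single arrays was left out) and the rest were not called, with Tyrp1 at 2.89 to 3.15 in GlycoHi and 3.03 to 3.25 in WT hearts and Sox10 at 5.73 to 5.87 and 5.46 to 5.98. The summed level of the 9 genes was 9.87 to 9.95 in WT and 12.84 to 13.13 in GlycoHi hearts, the latter carried by Tyr. The source of the Tyr signal was not tested.

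**Figure D1:**
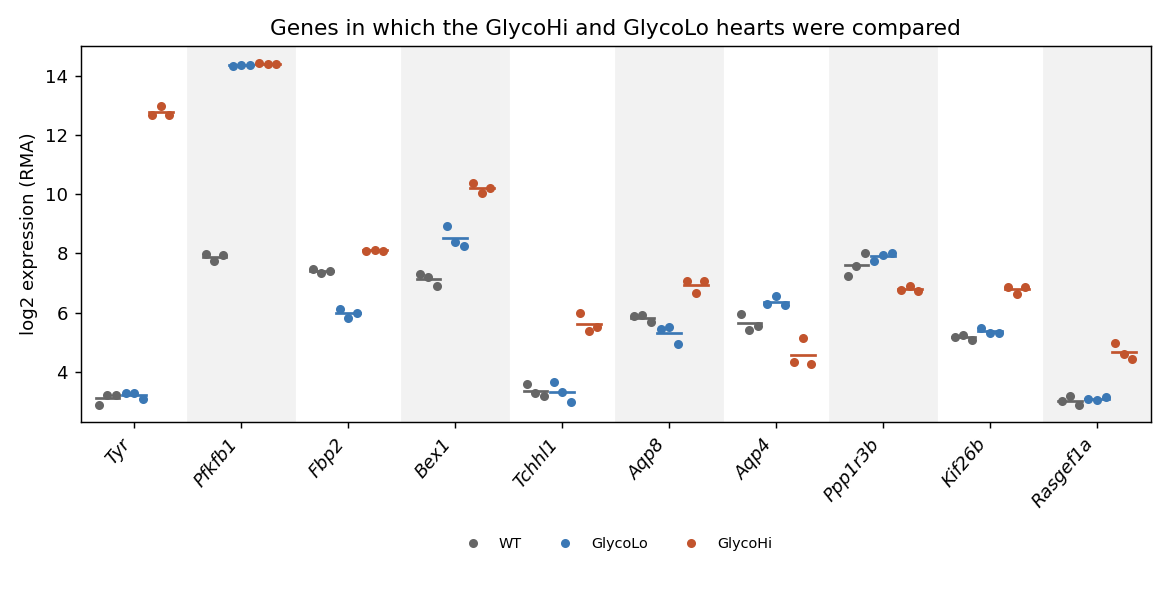
Log2 expression of 10 genes in each heart (points) with group means (lines), 3 WT, 3 GlycoLo and 3 GlycoHi hearts per gene. Tyr was at 12.67 to 12.99 in GlycoHi hearts alone, Pfkfb1 was at 14.34 or above in both transgenic lines, and Fbp2 lay above WT in GlycoHi and below WT in GlycoLo hearts.

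Enzymes that make or use glucose carbon changed little, with a few exceptions. Of 22 measured genes of glycolysis and glucose transport 2 were called higher and 0 lower, against a background of 1.61% and 1.5%, and the median difference was -0.02. Fbp2, the muscle fructose-1,6-bisphosphatase that works against phosphofructokinase 1, was at 7.48, 7.35 and 7.40 in WT hearts and at 8.10, 8.12 and 8.09 in GlycoHi hearts. In GlycoLo hearts it was at 6.14, 5.81 and 5.97, so that the 3 groups were ordered with no overlap. It rose by 0.69 ± 0.08 in GlycoHi (adjusted p = 0.00186) and fell by 1.44 ± 0.08 in GlycoLo hearts (adjusted p = 9.01e-05). Of the 19 probe sets called in both lines it was the 1 whose signs were opposite, and the lines differed by 2.13 ± 0.08 (adjusted p = 3.36e-07). Pgam1, a phosphoglycerate mutase, rose by 0.49 ± 0.08 (adjusted p = 0.0108) and lost its call without GlycoHi replicate 2 (adjusted p = 0.0525). Values of Hk2, a hexokinase, were 11.03 to 11.05 in GlycoHi and 11.05 to 11.08 in WT hearts, and those of Ldha, lactate dehydrogenase A, 11.79 to 11.85 and 11.78 to 11.90. None of the 21 genes of the side branches of glucose metabolism was called.

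Glycogen genes were mostly not called, with 1 of 19 higher and 2 lower, against a background of 1.61% and 1.5%. Pygl, the liver glycogen phosphorylase, was at 7.43, 7.08 and 7.32 in WT and at 6.08, 6.02 and 5.94 in GlycoHi hearts. Every GlycoHi value was below every WT and GlycoLo value, and Pygl fell by 1.27 ± 0.11 against WT (adjusted p = 0.000141) and by 0.91 ± 0.11 against GlycoLo (adjusted p = 0.00129). Ppp1r3b, which brings a phosphatase to glycogen, was at 7.25 to 8.0 in WT and at 6.72 to 6.90 in GlycoHi hearts. It fell by 0.82 ± 0.16 (adjusted p = 0.0253), a call lost without WT replicate 2 and without each GlycoHi heart in turn (highest adjusted p 0.091). Gyg, the primer of glycogen synthesis, rose by 0.34 ± 0.06 (adjusted p = 0.0158) and lost its call in 4 of the fits that left out a WT or GlycoHi heart (highest adjusted p 0.0698).

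Serine synthesis and the mitochondrial folate cycle held some of the largest rises. Of 19 measured members of the list for serine and one-carbon metabolism 4 rose and 1 fell, against a background of 1.61% and 1.5%. Each fit that left out an array also counted 4 rises, while the fall, that of Mat2a at -0.36 ± 0.08 (adjusted p = 0.0414), was called in none of them. Phgdh, the first enzyme of serine synthesis, was at 6.16, 6.30 and 6.19 in WT hearts and at 9.32, 9.14 and 9.63 in GlycoHi hearts. The GlycoLo values, 6.31, 6.34 and 6.15, lay among those of WT, and Phgdh rose by 3.15 ± 0.11 (adjusted p = 1.4e-07), or 2.51 with an offset of 50. Psat1, the next enzyme of the pathway, rose by 0.69 ± 0.11 (adjusted p = 0.0101), from 5.07 to 5.34 in WT to 5.79 to 6.03 in GlycoHi hearts. Psph, the last step, was at 6.54 to 6.57 against 6.37 to 6.43 and was not called (0.16 ± 0.06, adjusted p = 0.213).

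Mthfd2, a dehydrogenase and cyclohydrolase of the mitochondrial folate cycle that is low in most adult tissues, was at 4.82, 4.73 and 4.94 in WT, 4.70, 4.62 and 5.14 in GlycoLo and 9.53, 9.29 and 9.54 in GlycoHi hearts. It rose by 4.62 ± 0.13 (adjusted p = 1.93e-08), and by 3.26 with an offset of 50. Aldh1l2, which oxidises 10-formyltetrahydrofolate in mitochondria, was at 6.21, 6.39 and 6.39 in WT and 8.03, 7.82 and 8.15 in GlycoHi hearts. It rose by 1.67 ± 0.09 (adjusted p = 5.18e-06) and was 1.27 ± 0.09 above GlycoLo (adjusted p = 4.72e-05). Shmt2, the mitochondrial serine hydroxymethyltransferase that supplies this cycle, was at 6.08 to 6.39 in GlycoHi and 6.24 to 6.47 in WT hearts, and the groups overlapped (-0.07 ± 0.09, adjusted p = 0.788).

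Among 13 genes of amino acid synthesis 3 rose (1.61% of all probe sets with 1 symbol) and 3 fell (1.5%). Asns, asparagine synthetase, was at 3.87, 3.87 and 4.07 in WT, 4.02, 4.06 and 4.18 in GlycoLo and 8.49, 8.18 and 8.29 in GlycoHi hearts. Its rise of 4.39 ± 0.09 (adjusted p = 1.66e-09) started from a low level. It was 2.50 with an offset of 50. Aldh18a1 and Pycr1 make proline from glutamate in sequence. Aldh18a1 went from 6.38, 6.24 and 6.39 to 8.01, 8.02 and 7.95, by 1.66 ± 0.07 (adjusted p = 9.03e-07), and Pycr1 from 3.77, 4.01 and 3.69 to 4.87, 4.82 and 4.77, by 1.00 ± 0.11 (adjusted p = 0.000977), which was 0.29 with the offset of 50. All GlycoHi values of both genes were above all WT and GlycoLo values. The genes that fell were Oat, ornithine aminotransferase (-0.51 ± 0.08), Got2, mitochondrial aspartate aminotransferase (-0.52 ± 0.09), and Gpt, alanine aminotransferase (-0.36 ± 0.07). None of these 3 falls was called with WT replicate 2 left out or with the 6 hearts fitted alone.

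**Figure D2:**
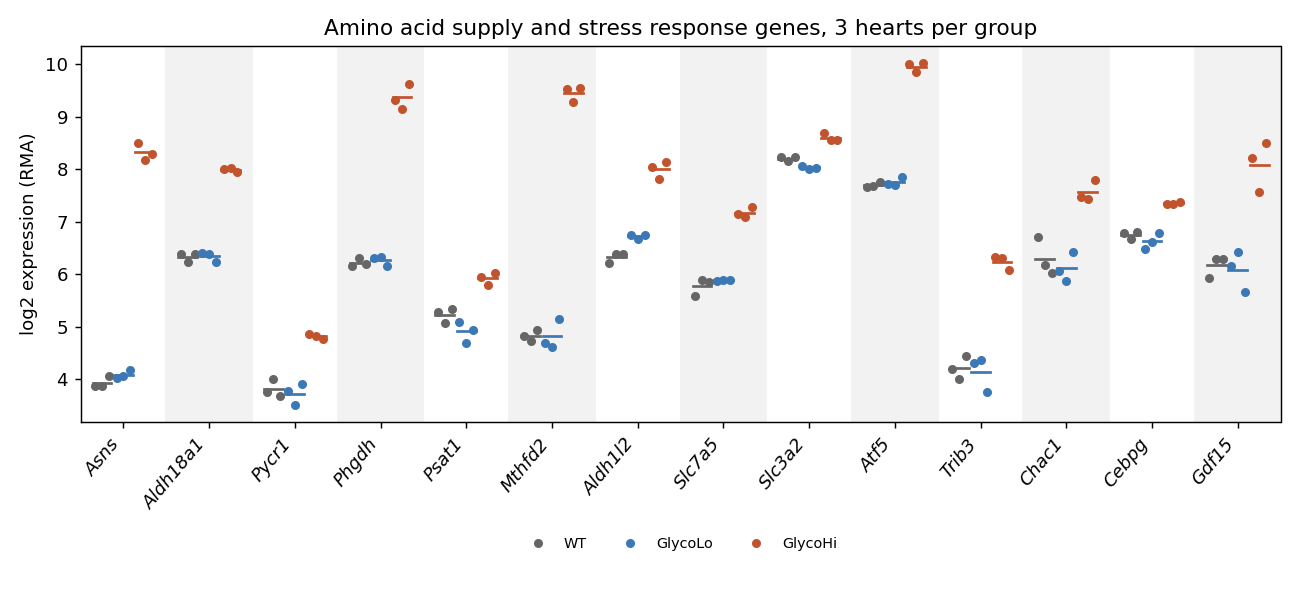
Log2 expression of 14 genes of amino acid supply and the stress response in each heart (points) with group means (lines). In all of them the 3 GlycoHi values lie above the 3 WT values, and for Asns, Mthfd2 and Phgdh the GlycoLo and WT values lie together.

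Transporters were moved in part. Of 25 amino acid transporter genes 3 rose and 1 fell, against a background of 1.61% and 1.5%. Slc7a5, the light chain of the large neutral amino acid transporter LAT1, was at 5.59, 5.89 and 5.86 in WT and 7.16, 7.09 and 7.27 in GlycoHi hearts, a rise of 1.40 ± 0.09 (adjusted p = 1.74e-05). Slc3a2, its heavy chain, rose by 0.39 ± 0.06 (adjusted p = 0.0107) and lost its call without WT replicate 2 (adjusted p = 0.0566). Slc7a3, a cationic amino acid transporter, rose by 0.43 ± 0.08 (adjusted p = 0.0223), a call lost on leaving out any single WT heart or GlycoHi replicate 1 or 3. Slc36a2, a proton-coupled transporter of small amino acids, was at 7.57, 7.47 and 7.58 in WT and 6.91, 7.0 and 7.09 in GlycoHi hearts and fell by 0.54 ± 0.07 (adjusted p = 0.00294). Slc7a11, the cystine transporter, was at 2.69 to 2.84 against 2.51 to 2.64 and was not called.

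Aminoacyl-tRNA synthetases charge tRNAs with their amino acids. Of 20 cytosolic synthetase genes 11 rose and 0 fell (55.0% of the list, against 1.61% of all probe sets with 1 symbol), and the median difference was 0.48, while the median of all probe sets was 0.00. The count was 11 in each fit that left out 1 array and with the 6 hearts fitted alone. No member was called in GlycoLo hearts, where the median was 0.05, and 11 were higher in GlycoHi than in GlycoLo by the test of that difference. Aars, for alanine, was at 8.22, 8.06 and 8.07 in WT and 9.19, 9.19 and 9.28 in GlycoHi hearts (1.10 ± 0.07, adjusted p = 1.86e-05). Gars, for glycine, was at 9.11, 9.03 and 9.10 and 10.11, 9.99 and 10.02 (0.96 ± 0.06, adjusted p = 2.14e-05). Sars, for serine, was at 8.09, 8.05 and 7.97 and 9.09, 8.74 and 8.99 (0.91 ± 0.09, adjusted p = 0.000606). The GlycoHi hearts were above all other hearts for each of these 3 genes. The other rises were 0.85 for Eprs (glutamate and proline), 0.80 for Mars (methionine), 0.78 for Cars (cysteine), 0.75 for Iars (isoleucine), 0.70 for Nars (asparagine), 0.61 for Yars (tyrosine), 0.53 for Lars (leucine) and 0.43 for Tars (threonine). Below them came Qars, for glutamine, at 0.28 ± 0.07 (adjusted p = 0.0706), and the lowest member was Dars, for aspartate, at -0.05 ± 0.07.

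**Figure D3:**
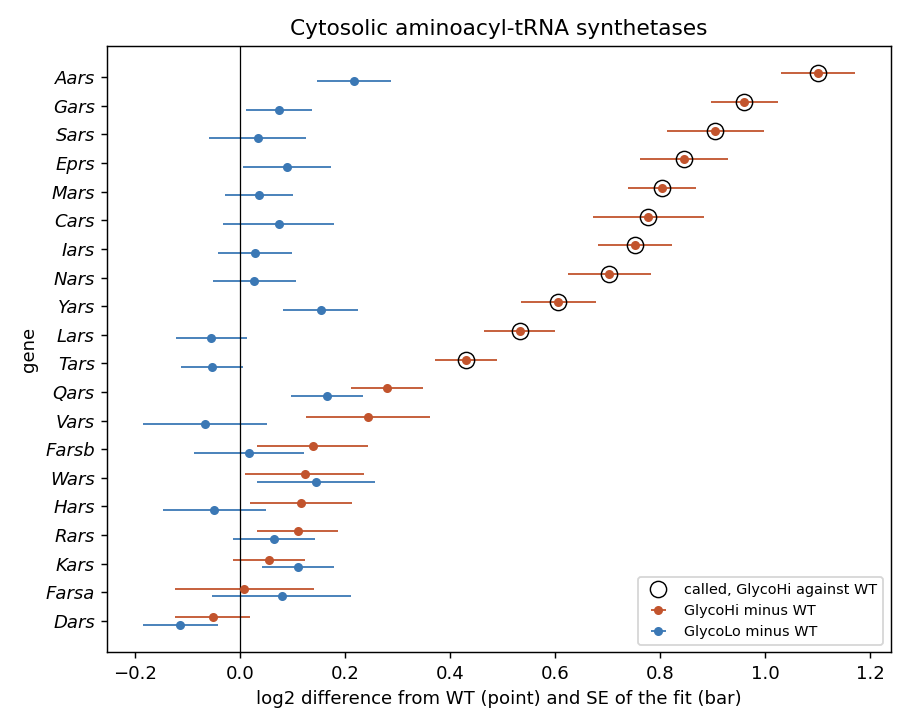
Difference from WT on the log2 scale (points, with the SE of the fit as bars) of 20 cytosolic aminoacyl-tRNA synthetase genes in GlycoHi and GlycoLo hearts, ordered by the GlycoHi value. The 11 ringed genes were called in GlycoHi against WT and lie between 0.43 and 1.10, while the highest GlycoLo value, that of Aars, is 0.22.

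Regulators of the stress response rose as well, 7 of 21 with 0 lower (33.3%, against 1.61% of all probe sets with 1 symbol). The count was 6 to 8 when single arrays were left out. Atf5, a transcription factor of the mitochondrial stress response, was at 7.66, 7.68 and 7.76 in WT, 7.73, 7.69 and 7.85 in GlycoLo and 9.84 to 10.02 in GlycoHi hearts (2.26 ± 0.07, adjusted p = 7.65e-08). Trib3, a pseudokinase induced by ATF4, was at 4.19, 4.01 and 4.44 in WT and 6.32, 6.31 and 6.08 in GlycoHi hearts (2.02 ± 0.16, adjusted p = 9.5e-05; 0.87 with an offset of 50). Chac1, which degrades glutathione, was at 6.71, 6.17 and 6.02 and 7.47, 7.43 and 7.79 (1.26 ± 0.19, adjusted p = 0.00596). The GlycoHi values of these 3 genes did not overlap those of either other group. Cebpg, a dimer partner of ATF4, rose by 0.60 ± 0.08 (adjusted p = 0.00359), Atf6, a sensor of the endoplasmic reticulum, by 0.55 ± 0.07 (adjusted p = 0.00359) and Eif4ebp1, a brake on translation initiation, by 0.40 ± 0.06 (adjusted p = 0.00608). Ddit3, the transcription factor CHOP, rose by 0.59 ± 0.10 (adjusted p = 0.0121) and lost its call without WT replicate 2 or GlycoHi replicate 3 or with the 6 hearts alone.

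Atf4 itself was at 7.35, 7.08 and 7.54 in WT and 7.95, 7.65 and 7.78 in GlycoHi hearts, and the difference of 0.47 ± 0.12 was not called (adjusted p = 0.0717). The groups did not overlap, as in 18.2% of all probe sets. ATF4 is controlled largely at translation, which an array does not measure. Of 20 chaperone genes of the endoplasmic reticulum 0 were called in either direction by limma's adjusted p, with 15 standing lower than in WT and up to 4 called lower under the other settings. Hspa5, the main one, was at 11.27 to 11.41 in GlycoHi and 11.57 to 11.80 in WT hearts (-0.29 ± 0.08, adjusted p = 0.0983). None of 17 mitochondrial chaperone and protease genes was called. Gdf15, a secreted stress hormone, was at 5.94, 6.29 and 6.29 in WT and 8.21, 7.56 and 8.5 in GlycoHi hearts, a rise of 1.91 ± 0.23 (adjusted p = 0.00199). The spread among the GlycoHi hearts was wide for this gene, but the lowest, replicate 2, was still above every WT heart.

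**Figure D4:**
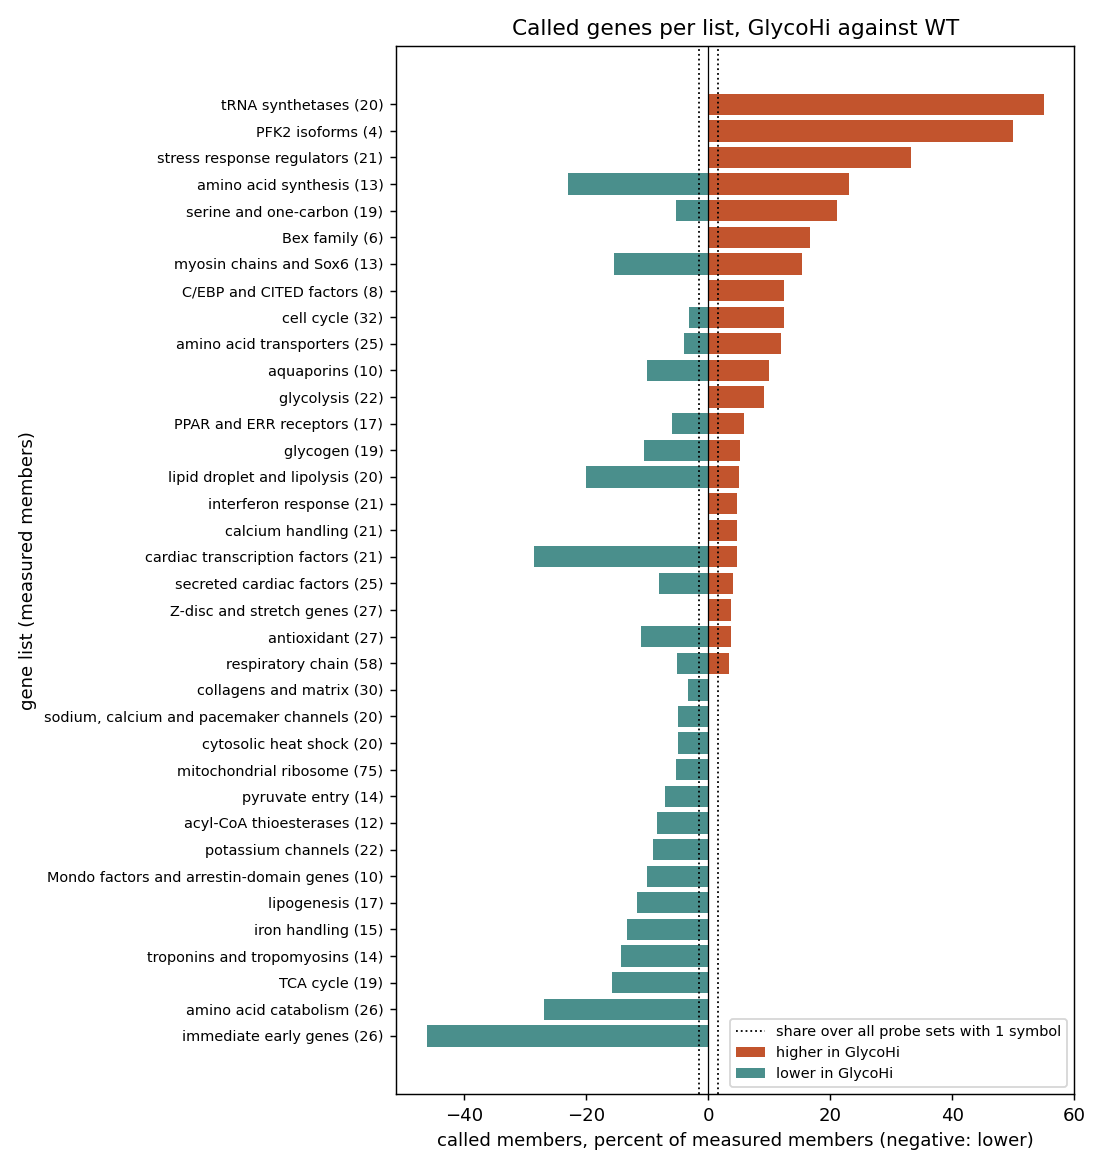
Percent of the measured members of each gene list called higher (bars to the right) or lower (bars to the left, negative) in GlycoHi against WT hearts, for the lists with a called member, with list sizes in brackets and the shares over all probe sets with 1 symbol as dotted lines (1.61% higher, 1.5% lower). The synthetases have the longest bar to the right and the immediate early genes the longest to the left.

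Enzymes that break down amino acids went the other way, though fewer were called. Of 26 measured 7 fell and 0 rose (26.9%, against 1.5%), with a median of -0.16, and between 3 and 7 fell when single arrays were left out, the fewest without WT replicate 2. In GlycoLo hearts 3 fell and the median was -0.18. Dbt, a subunit of the branched-chain keto acid dehydrogenase, was at 8.76, 8.83 and 8.73 in WT and 8.05, 8.38 and 8.02 in GlycoHi hearts (-0.63 ± 0.09, adjusted p = 0.00662). Ppm1k, the phosphatase that activates that dehydrogenase, fell by 0.57 ± 0.09 (adjusted p = 0.00784) and Ivd, of leucine breakdown, by 0.43 ± 0.06 (adjusted p = 0.00616). These 3 falls were called whichever array was left out. Fah, the last enzyme of tyrosine breakdown, was at 8.25 to 8.31 in WT, 7.54 to 7.83 in GlycoHi and 6.85 to 7.27 in GlycoLo hearts. It was called lower in both lines, against the same WT hearts, and was higher in GlycoHi than GlycoLo by 0.59 ± 0.11 (adjusted p = 0.023). In GlycoHi hearts it fell by 0.62 ± 0.11, and that call was lost in 5 of the fits that left out an array.

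Mitochondrial energy genes held scattered calls. In the respiratory chain 2 of 58 rose and 3 fell, against a background of 1.61% and 1.5%. With an array left out 1 to 3 fell, and up to 17 fell under the other settings, with 47 of the 58 genes standing lower than in WT. Cox8a, a subunit of complex IV, went from 10.38, 10.38 and 10.39 to 10.85, 10.79 and 10.87 (0.45 ± 0.06, adjusted p = 0.00261), and Ndufs4, of complex I, from 7.40, 7.17 and 7.22 to 6.76, 6.68 and 6.66 (-0.56 ± 0.07, adjusted p = 0.00261). Both calls held whichever array was left out. In the TCA cycle 3 of 19 fell and in the mitochondrial ribosome 4 of 75, among them Mrps25 at -0.58 ± 0.07 (adjusted p = 0.00217). The TCA count fell to 0 without GlycoHi replicate 2 and reached 9 under the other settings. Of 26 genes of fatty acid uptake and oxidation, 7 of ketone bodies and 26 of insulin and IGF signalling, 0 were called in each. Esrrg, an orphan receptor that drives mitochondrial genes, rose by 0.39 ± 0.06 (adjusted p = 0.00956), and Lpin1, a lipid phosphatase and transcriptional coactivator, fell by 0.43 ± 0.06 (adjusted p = 0.00549).

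Among 20 lipid droplet and lipolysis genes 1 rose and 4 fell (background 1.61% and 1.5%), beside the lower sum of white adipocyte markers, whose part in these results was not tested. With single arrays left out 1 to 3 fell, and 1 with the 6 hearts alone. Ces1d, a carboxylesterase that hydrolyses lipid esters, was at 9.40, 9.35 and 9.33 in WT, 8.69, 8.69 and 8.62 in GlycoLo and 6.98, 7.30 and 7.43 in GlycoHi hearts. The 3 groups did not overlap, and Ces1d fell by 2.12 ± 0.10 in GlycoHi (adjusted p = 1.74e-06) and by 0.70 ± 0.10 in GlycoLo hearts (adjusted p = 0.0393), with 1.43 ± 0.10 between the lines (adjusted p = 4.58e-05). Thrsp, a regulator of lipogenesis and 1 of the adipocyte markers, was at 9.41, 9.14 and 9.39 in WT, 9.25 to 9.63 in GlycoLo and 8.36, 8.31 and 8.34 in GlycoHi hearts (-0.98 ± 0.10, adjusted p = 0.000741). Adipoq, an adipocyte hormone, was at 5.63, 6.20 and 7.78 in WT and 5.62, 4.46 and 4.6 in GlycoHi hearts and was not called (adjusted p = 0.185). Agpat9, an acyltransferase of triglyceride synthesis, rose by 0.52 ± 0.08 (adjusted p = 0.00652). G0s2, an inhibitor of the lipase ATGL, fell by 0.69 ± 0.12 (adjusted p = 0.0155) and lost its call in 4 of the fits that left out a WT or GlycoHi heart.

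Contractile genes were called in few places. Myh7, the slow myosin heavy chain of the fetal mouse heart, was at 10.64, 11.77 and 10.65 in WT, 13.80, 13.71 and 13.80 in GlycoLo and 13.82, 13.95 and 13.95 in GlycoHi hearts. WT replicate 2 stood above the other WT hearts but below every transgenic heart. Myh7 rose by 2.89 ± 0.24 in GlycoHi (adjusted p = 0.000133) and by 2.75 ± 0.24 in GlycoLo hearts (adjusted p = 0.00155), against the same WT hearts, and the lines did not differ by the test (0.14 ± 0.24, adjusted p = 0.863). Sox6, a repressor of slow muscle genes, was at 6.02 to 6.08 in WT, 4.97 to 5.18 in GlycoLo and 4.89 to 5.05 in GlycoHi hearts, lower in GlycoHi by 1.07 ± 0.07 (adjusted p = 3.45e-05) and in GlycoLo by 0.97 ± 0.07 (adjusted p = 0.000501).

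Other muscle genes moved in GlycoHi hearts and were not called in GlycoLo hearts, where far fewer probe sets were called. The lack of a call there does not by itself show that the lines differ. Myh6, the fast myosin heavy chain of the adult mouse ventricle, was at 10.22, 10.37 and 10.16 in WT and 9.75, 9.45 and 9.45 in GlycoHi hearts. Its probe set differed by -0.70 ± 0.10 (adjusted p = 0.00444), and the lines differed by -0.47 ± 0.10 (adjusted p = 0.0421). The WT values of this probe set lay below those of Myh7, and its target region is not given. Whether it follows the total level of Myh6 transcripts was not tested. Myl1, a light chain of fast skeletal muscle, was at 11.31, 11.55 and 11.54 in WT and 12.37, 12.41 and 12.38 in GlycoHi hearts (0.92 ± 0.08, adjusted p = 0.000173). Of 10 skeletal muscle markers 0 were called, and 8 stood lower. Tnnt1, slow skeletal troponin T, was at 7.18, 7.25 and 7.19 in WT, 7.54 to 7.76 in GlycoLo and 6.37, 6.54 and 6.11 in GlycoHi hearts. It fell by 0.86 ± 0.10 (adjusted p = 0.00167) and the lines differed by -1.31 ± 0.10 (adjusted p = 9.62e-05). Tpm1, alpha tropomyosin, fell by 1.14 ± 0.19 (adjusted p = 0.0109) and was not called with the 6 hearts fitted alone. It stood at -0.51 ± 0.19 against GlycoLo (adjusted p = 0.27). Flnc, filamin C of the Z-disc, rose by 0.36 ± 0.06 (adjusted p = 0.0107), the 1 called of 27 genes of its list, against a background of 1.61% higher.

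The transient outward potassium current shapes early repolarisation. Kcnip2, its accessory subunit, was at 7.35, 7.52 and 7.21 in WT, 7.37, 7.06 and 7.36 in GlycoLo and 6.29, 4.8 and 5.59 in GlycoHi hearts. The GlycoHi hearts spread over more than a unit but all lay below the other 6, and Kcnip2 fell by 1.80 ± 0.28 (adjusted p = 0.0087), a call lost with the 6 hearts fitted alone. With an offset of 50 the difference was -1.11. Kcnd2, a pore subunit, was at 8.76, 8.70 and 8.73 in WT and 8.35, 8.26 and 8.13 in GlycoHi hearts (-0.48 ± 0.07, adjusted p = 0.00754). They were the 2 called of 22 potassium channel genes, against a background of 1.5% lower, and the median of the list was -0.20. Kcnd3, another pore subunit of the same current, stood at -0.41 ± 0.11 and was not called (adjusted p = 0.101). Slc8a1, the sodium-calcium exchanger, was the 1 called of 21 calcium handling genes (0.53 ± 0.10, adjusted p = 0.0271), against a background of 1.61% higher. Its call was lost in 4 fits with a WT or GlycoHi heart left out. Ryr2, the calcium release channel, stood at -0.63 ± 0.14 (adjusted p = 0.0508).

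**Figure D5:**
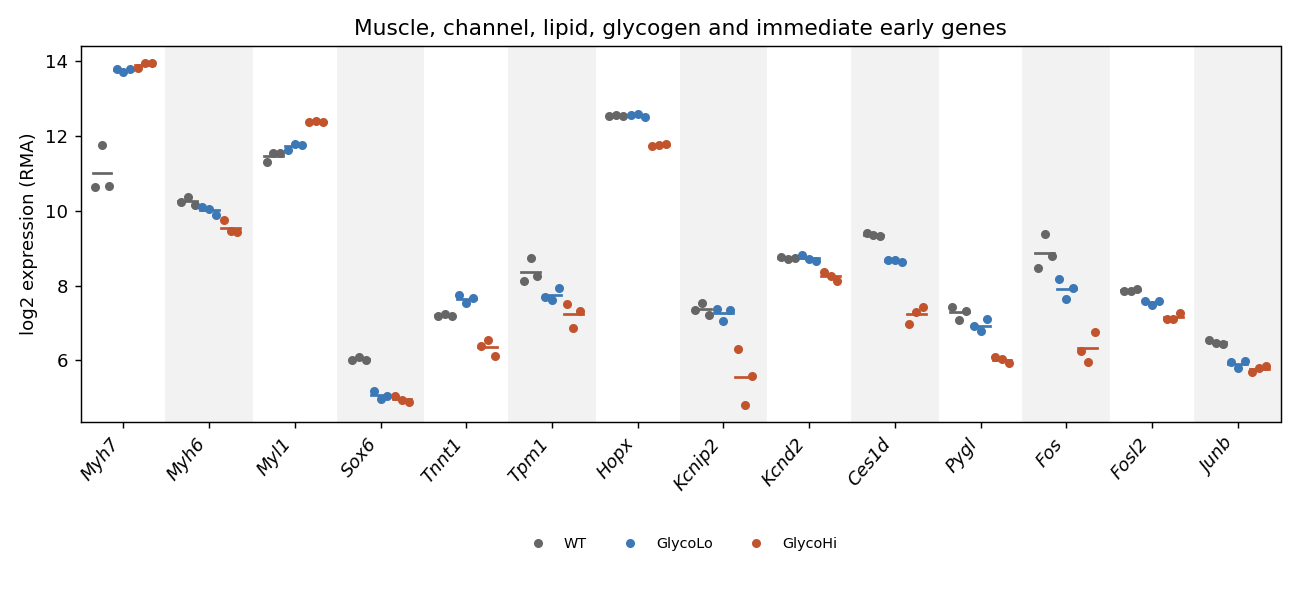
Log2 expression of 14 muscle, channel, lipid, glycogen and immediate early genes in each heart (points) with group means (lines). Myh7 and Sox6 values of the 2 transgenic lines lie close together, Hopx, Tnnt1 and Kcnip2 are lower in GlycoHi hearts than in both other groups, and Ces1d has GlycoLo values between the other 2 groups.

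Of 21 cardiac transcription factors 6 were called lower and 1 higher, against a background of 1.5% and 1.61%. Hopx, a homeodomain protein that modulates cardiac transcription, was at 12.53, 12.55 and 12.53 in WT, 12.52 to 12.58 in GlycoLo and 11.72, 11.76 and 11.79 in GlycoHi hearts. It fell by 0.78 ± 0.06 (adjusted p = 7.42e-05) and was also called lower than in GlycoLo (-0.80 ± 0.06, adjusted p = 5.82e-05). Gata6, Mef2c, Hand2, Tbx20 and Myocd differed by -0.44 to -0.56 with adjusted p between 0.0293 and 0.0382, and each lost its call on leaving out any of 5 or more single arrays. Srf, called higher at 0.30 ± 0.07 (adjusted p = 0.0498), lost its call whichever array was left out. Without GlycoHi replicate 2 only Hopx of this list was called lower.

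Immediate early genes are transcribed within minutes of a stimulus, before new protein is made. Of 26 measured 12 fell and 0 rose in GlycoHi hearts (46.2%, against 1.5%), with a median of -0.54, and between 7 and 12 fell with single arrays left out. In GlycoLo hearts 1 fell and the median was -0.30, and 3 were lower in GlycoHi than in GlycoLo by the test. Fos was at 8.46, 9.38 and 8.80 in WT, 8.17, 7.63 and 7.94 in GlycoLo and 6.24, 5.96 and 6.76 in GlycoHi hearts (-2.56 ± 0.25, adjusted p = 0.000368). The 3 groups did not overlap, and GlycoHi was 1.59 ± 0.25 below GlycoLo (adjusted p = 0.00841). Fosl2 went from 7.85, 7.87 and 7.91 to 7.11, 7.11 and 7.26 (-0.72 ± 0.07, adjusted p = 0.000283) and Junb from 6.54, 6.46 and 6.44 to 5.69, 5.80 and 5.85 (-0.70 ± 0.07, adjusted p = 0.000668). Klf2, Klf4 and Zfp36, an mRNA decay factor, fell by 0.62 ± 0.08, 0.73 ± 0.11 and 0.64 ± 0.10, calls that held whichever array was left out. Nr4a1 fell by 0.91 ± 0.16 (adjusted p = 0.0155) and lost its call without WT replicate 2 or GlycoHi replicate 1 or 2. Egr1 was at 8.67, 9.46 and 9.40 in WT and 7.51, 8.33 and 8.57 in GlycoHi hearts and was not called (adjusted p = 0.103).

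Cell cycle genes were called in 5 of 32 cases, against 3.12% of all probe sets with 1 symbol. Ccnd2, a G1 cyclin, was at 5.72, 5.22 and 5.37 in WT, 5.04 to 5.70 in GlycoLo and 7.0, 6.82 and 6.93 in GlycoHi hearts (1.48 ± 0.16, adjusted p = 0.00104; 0.87 with an offset of 50). Mcm2, a subunit of the replicative helicase, rose by 0.79 ± 0.11 (adjusted p = 0.00335), and Cenpa, the centromeric histone, fell by 0.66 ± 0.08 (adjusted p = 0.00231). Mcm7 (0.54 ± 0.10) and the cell cycle inhibitor Cdkn1a (0.70 ± 0.15) rose with calls that were lost on leaving out any of 4 and 6 single arrays, and 27 members were not called.

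Other changes lay in small families or outside the lists. Over all probe sets with 1 symbol 1.61% were called higher and 1.5% lower. Bex1, a small adaptor protein of neurons and stressed muscle, was at 7.30, 7.21 and 6.89 in WT, 8.92, 8.38 and 8.23 in GlycoLo and 10.39, 10.05 and 10.22 in GlycoHi hearts. The groups were stepwise with no overlap. Bex1 rose by 3.09 ± 0.17 in GlycoHi (adjusted p = 5.86e-06) and by 1.38 ± 0.17 in GlycoLo hearts (adjusted p = 0.02), and the lines differed by 1.71 ± 0.17 (adjusted p = 0.000491). It was the 1 called of 6 measured genes on the Bex family list, which holds Tceal1 and Tceal8. Tceal7, not on that list, was also called higher (0.96 ± 0.21, adjusted p = 0.0434). Tchhl1 was at 3.57, 3.28 and 3.19 in WT and 6.0, 5.37 and 5.5 in GlycoHi hearts (2.27 ± 0.19, adjusted p = 0.00015), and with an offset of 50 the difference was 0.73. Rasgef1a, a Ras family exchange factor, rose by 1.64 ± 0.12 and Kif26b, an atypical kinesin, by 1.61 ± 0.09, and neither was called in GlycoLo hearts. With an offset of 50 these rises were 0.38 and 0.90. Aqp8, a water channel, was at 5.88, 5.90 and 5.69 in WT, 5.44, 5.50 and 4.95 in GlycoLo and 7.07, 6.65 and 7.07 in GlycoHi hearts (1.11 ± 0.15, adjusted p = 0.00418). Aqp4, the other called gene of 10 aquaporins, was at 5.42 to 5.95, 6.26 to 6.55 and 4.26 to 5.15 in the same order and fell by 1.06 ± 0.21 (adjusted p = 0.0329), a call lost on leaving out any array but GlycoHi replicate 2 and with an offset of 50 (-0.42).

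Among the falls, Frem2, an extracellular matrix protein, went from 7.64, 7.52 and 7.45 to 6.01, 5.99 and 6.10 (-1.51 ± 0.11, adjusted p = 5.7e-05), and GlycoLo hearts at 7.08 to 7.52 stood with WT. Ano10, a membrane protein of the anoctamin family, fell by 1.02 ± 0.09 (adjusted p = 0.000224) and also lay below GlycoLo. Rgs2, which dampens signals of G protein-coupled receptors, fell by 1.06 ± 0.15 (adjusted p = 0.00396). Cmtm6, a membrane protein, was at 7.32 to 7.44 in WT, 6.44 to 6.46 in GlycoLo and 5.97 to 6.29 in GlycoHi hearts and was called lower in both lines, which share the WT hearts. Dpm1, of dolichol phosphate mannose synthesis, fell by 1.07 ± 0.11 (adjusted p = 0.00074) and Cd24a, a cell surface glycoprotein, by 1.14 ± 0.14 (adjusted p = 0.00235). Hspa8, a constitutive chaperone, fell by 1.10 ± 0.22 (adjusted p = 0.0272) and lost the call on leaving out any of 4 single arrays. In GlycoLo hearts Dpm1, Cd24a and Hspa8 stood at -0.74, -0.77 and -1.23 and were not called.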

How the data were processed

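Expression was measured in 9 whole mouse hearts, 1 array each. The authors deposited log2 values per probe set, summarised with RMA per the submitters' processing notes; the sources used here give no settings for background or scaling. Gene symbols came from the authors' deposited table, which names 1 symbol for 19760 probe sets, several for 876 and a spreadsheet date for 24, and does not list 24377; each symbol has 1 listed probe set, whose target region the sources do not give. The fold scores and p-values in that deposited table were the authors' own and were not used. Of the symbols, 17779 were current in RefSeq (GRCm38.p6), and symbols are printed as deposited.

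One linear model of the 3 genotype means was fitted to all 9 arrays with limma 3.58.1 in R 4.3.3 (lmFit and eBayes, 6 residual and 4.66 prior degrees of freedom). Adjusted p is Benjamini-Hochberg over 45037 probe sets, called under 0.05; errors are the fit's SE. The lowest p that exact permutation of 3 mice against 3 allows for a gene is 0.1. The lists, motif and members were chosen with earlier results of these data known. Genes were named by rule: the 15 largest called rises and falls without overlap, the 4 Pfkfb genes, up to 8 called members per list (next members where fewer than 3), and the largest differences between lines; others named in the text are members of a fixed list.

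On simulated data over 45037 probe sets, the fit of GlycoHi against WT recovered 29 of 50 changes of 0.5 (log2), 49 of 50 at 1, 49 of 50 at 2 and 50 of 50 at 4, with 13 false among 190 calls. The labels number replicates 1 to 3 in each group without saying that a number marks a litter or batch. Deviations from the group means had r from -0.018 to 0.117 between same-numbered hearts. Between hearts of different numbers r was -0.113 to 0.062, so the highest r was that of a same-numbered pair. Alternatives were the replicate number as a block, the 6 hearts alone, array weights, a trended robust variance, a 1.5-fold minimum, a mean of at least 5, an offset of 50, cyclic loess, a common median, each array left out, and the authors' listed probe sets only, the last added after the data were seen. Figures were drawn with matplotlib 3.10.9 (Python 3.11.15, pandas 2.3.3). Precision is limited by the number of arrays. Some results are not reported here.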

Additional observations from a re-analysis of the deposited data

Results flagged for a closer look

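These 8 genes were called in GlycoHi against WT and had the largest called differences between GlycoHi and GlycoLo hearts, which is the test of whether the 2 lines differ from WT unequally. GlycoHi stood above GlycoLo by 9.56 for Tyr, 4.63 for Mthfd2, 4.23 for Asns, 3.10 for Phgdh, 2.31 for Tchhl1, 2.20 for Atf5, 2.13 for Fbp2 and 2.10 for Trib3 (log2; limma adjusted p between 1.45e-11 and 0.000146). In each of them the 3 GlycoHi values lay above the 3 GlycoLo values. Fbp2 was the 1 gene of these that was called in GlycoLo against WT, in the opposite direction.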

How the results depend on the processing

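The count of probe sets called in GlycoHi against WT, 938, was 1752 with a mean of at least 5, 1620 with an offset of 50, 1875 with a trended and robust variance, 502 with the 6 hearts alone and 307 with a 1.5-fold minimum. With single arrays left out it lay between 429 (without WT replicate 2) and 769, and it was 487 without WT replicate 3 and 569, 502 and 528 without GlycoHi replicates 1, 2 and 3. The count between GlycoHi and GlycoLo, 771, was 1323, 1271, 1547, 444 and 313 under the same 5 settings and 375 (without GlycoHi replicate 3) to 651 with single arrays left out; without GlycoLo replicates 1, 2 and 3 it was 423, 462 and 381, and without GlycoHi replicates 1 and 2 it was 510 and 507. At a mean of at least 5 fewer probe sets were tested, and the smaller fits held fewer hearts. The cause of the shifts in the counts was not tested. A common median gave 886 and cyclic loess 1032. With the replicate number as a block the counts were 775 (683 of them shared with the 938) and 627; numbers are not known to pair hearts. Of 124 named genes called, 54 lost the call in at least 1 fit with an array left out and 51 with the 1.5-fold minimum. With the 6 hearts alone 37 lost it and with the block 16, and none of the 124 changed sign. In 5 genes that were not called the sign turned when an array was left out. Cd3g ranged from -0.1004 (without GlycoHi replicate 3) to 0.2633, Pfkfb4 from -0.0338 (without WT replicate 3; -0.01 without GlycoHi replicate 1) to 0.1296, Pln from -0.0035 to 0.0748 and Tceal1 from -0.016 to 0.1202 (both lowest without GlycoHi replicate 2), and Tcf21 from -0.013 (without WT replicate 3) to 0.1883. At an unadjusted p under 0.05 there were 6539 probe sets. In WT hearts Tyr lay at the 18.2 percentile of all probe sets and Asns at the 36.4 percentile.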

Other observations

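Neighbours of strongly changed genes were looked up after their values were seen, and the values are given with no explanation. The order was that of RefSeq protein-coding genes whose symbol matched a measured probe set. Genes without such a match were skipped, so neighbours here need not be adjacent in the genome. Brca2, a DNA repair gene on chromosome 5, was at 5.02, 5.13 and 4.64 in WT and 6.33, 6.37 and 6.80 in GlycoHi hearts, a rise of 1.57 ± 0.17 (limma adjusted p = 0.000926). N4bp2l1, the next gene, was at 4.32, 4.54 and 4.39 in WT and 5.82, 5.45 and 6.05 in GlycoHi hearts and rose by 1.36 ± 0.14 (adjusted p = 0.000545). The genes on either side of this pair, Fry at 0.18 ± 0.13 and N4bp2l2 at 0.20 ± 0.09, were not called, and in GlycoLo hearts Brca2 and N4bp2l1 stood at -0.12 and -0.05.

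Tceal7, next to Bex1 on chromosome X, rose by 0.96 ± 0.21 (adjusted p = 0.0434), and Tchh, next to Tchhl1 on chromosome 3, by 0.49 ± 0.11 (adjusted p = 0.0479), both from levels near the bottom of the scale. The neighbours of Tyr on chromosome 7, Nox4 at 0.05 ± 0.16 and Grm5 at -0.09 ± 0.11, were not called, and neither were those of Pfkfb1 on chromosome X, Alas2 at -0.74 ± 0.21 and Tro at -0.17 ± 0.11. Beside Hspa8 on chromosome 9, Clmp at 0.22 ± 0.11 and Crtam at -0.08 ± 0.08 were not called. Farther out, Gramd1b stood at -0.82 ± 0.12 (adjusted p = 0.00489) and Ubash3b at 1.36 ± 0.12 (adjusted p = 0.000237).

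Of the 24377 probe sets with no symbol in the table used here, 298 were called in GlycoHi against WT. That is a smaller share than over all 45037 probe sets (2.08%) or over the 19760 with a single symbol (3.12%).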
